A study of Mus musculus with 2 samples.

Results

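The cells described here are macrophages of the mouse dorsal meninges that carried C1q transcripts together with Ccr2, Cx3cr1, Fcgr4 and related genes, and at most 1 of 5 genes that mark resident border macrophages. They were selected on measured counts. A cell was taken when the 3 C1q genes together held at least 5 unique molecular identifiers (UMIs, each standing for 1 captured transcript) and at least 0.5% of the cell's UMIs, and when the lymphocyte genes Cd79a and Cd3e had none. In addition, at most 1 of the border genes Lyve1, Folr2, Cbr2, Cd209f and Cd209g and at least 2 of the 6 genes Fcgr4, Slamf9, Cx3cr1, Ccr2, Lgals3 and Klra2 had to be detected. This rule found 413 macrophages among 5816 filtered cells, 116 of 2043 in the Sham library and 297 of 3773 in the TBI library. The levels of the genes in the rule are therefore given as a description only.

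The data were 2 single-cell libraries of dorsal meninges, taken 1 week after a mild closed-skull traumatic brain injury (TBI) or a sham procedure (Sham). Each pooled 5 male C57BL/6 mice, described in the study's methods as wild-type C57BL/6J and given as 10 weeks old in one label and as 10 to 12 weeks in another, and about 4000 cells were loaded. With 1 library per group there was no replicate, so no test between Sham and TBI was made, and a difference between them describes these 2 libraries. Intervals in brackets are 95% intervals, exact binomial or Poisson unless named otherwise, and cover counting error only.

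The meninges hold long-lived macrophages that are recognised by Lyve1, Folr2, Mrc1 and Cd163, and others with high MHC class II that are replaced from blood monocytes to varying degrees. Ccr2 is the receptor for the chemokine Ccl2 and carries monocytes out of the marrow, Cx3cr1 is the receptor for fractalkine, and Fcgr4 is an activating receptor for IgG. MHC class II molecules present peptides to CD4+ T cells, and C1q starts the classical complement pathway.

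The libraries held 2699 barcodes and 9527334 UMIs in Sham and 4349 barcodes and 15011079 UMIs in TBI. The selected macrophages summed to 855162 UMIs in Sham and 1928153 in TBI. CPM is used here for a gene's UMIs per 1000000 summed UMIs of a class, and a count of 0, taken as allowing up to 3 UMIs, allowed 3.51 CPM in Sham and 1.56 CPM in TBI. A selected cell held a median of 6995 UMIs in Sham (range 598 to 19569) and 6244 in TBI (range 507 to 23653). The libraries shared 20 barcodes, of which 1 was a selected macrophage in either library and 0 in both.

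The label was checked against markers that the rule did not use. Csf1r, the receptor for the macrophage growth factor CSF1, was detected in 94.0% of the Sham cells and 97.3% of the TBI cells, at 1330 and 1362 CPM. In cells selected on endothelial markers, which should lack it, Csf1r stood at 0 and 13.9 CPM. Adgre1, which encodes F4/80, was detected in 77.6% and 83.5% of the macrophages, and Cd68, a lysosomal membrane protein, in 93.1% and 89.9%. Fcgr1, the high-affinity IgG receptor, was found in 73.3% and 73.4%. Mertk, a receptor for apoptotic cells, was found in only 10.3% and 12.1%. The macrophage label was thus met by these genes, with Mertk the weakest of them.

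Markers of most other cells that the gate could hold were low, and 4 lists reached higher sums in 1 of the libraries. Flt3, a dendritic cell receptor, was detected in 3.45% and 3.03% of the cells, and at least 2 of Flt3, Cd209a, Zbtb46 and Dpp4 in 5 Sham and 7 TBI cells. Treml4, which marks non-classical monocytes, was found in 2.59% and 1.01%, and Ly6c2, which marks classical monocytes, in 4.31% and 2.69%. The 5 neutrophil genes summed to 30.4 and 61.7 CPM, the 4 T cell genes to 3.51 and 2.07 CPM and the 4 NK genes to 0 and 25.4 CPM. Trac, which encodes the T cell receptor alpha chain, had no UMI in either library. The 5 endothelial genes summed to 18.7 and 29.0 CPM, the 3 B cell genes to 47.9 and 76.8 CPM and the 4 mast cell genes to 7.02 and 16.1 CPM. The 7 classical monocyte genes summed to 685 CPM in Sham and 152 CPM in TBI, the 4 fibroblast genes to 33.9 and 120 CPM and the 3 choroid plexus genes to 71.3 and 3473 CPM. The 4 hemoglobin genes of red cells summed to 1986 CPM in Sham and 130 CPM in TBI. Most of the Sham classical monocyte sum and of the TBI choroid plexus sum lay in a few cells, described below. The TBI classical monocyte sum was mostly Ms4a4c, with 214 UMIs in cells with Ccr2 and 44 in cells without it. In TBI Ly6c2 had 26 UMIs and Plac8 had 7.

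Genes otherwise known from microglia were present at low levels. Gpr34 was detected in 49.1% of Sham and 49.2% of TBI cells, P2ry12, a purine receptor, in 29.3% and 33.0%, and Tmem119 in 28.4% and 30.6%. Sall1, the transcription factor that defines microglia, had 2 UMIs in each library. With each cell thinned to 1000 UMIs, Tmem119 was found in 13.3% and 5.84% of these cells and in 0% and 0.216% of the endothelial-marker cells. P2ry12 and Gpr34 were higher in border-marker macrophages, at 160 and 130 CPM for P2ry12 against 71.3 and 76.2 CPM here.

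When all 5816 cells were clustered without use of the rule, 304 of the 413 (73.6%) fell in 1 cluster of 366 cells led by Klra2, Fcgr4, Cx3cr1, Trem2, C3ar1 and Apobec1. Another 75 (18.2%) fell in a cluster led by Cd209f, Folr2, Cbr2 and Pf4, and 17 in a shallow cluster led by Hpgds and Ccl8. The other 17 were spread over 9 clusters that held at most 5 each, the first of which was led by Mki67, a gene of dividing cells. The rule therefore drew mostly, but not entirely, on 1 cluster.

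Among the 6 genes of the rule, Cx3cr1 (ENSMUSG00000052336, chr9:119901616-120069879 of GRCm38, minus strand) was detected in 92.2% of the Sham and 85.5% of the TBI cells. Slamf9 (chr1:172475358-172478575), a receptor of the SLAM family, was detected in 78.4% and 75.8%, and Ccr2 (ENSMUSG00000049103, chr9:124101950-124113557) in 69.8% and 75.4%. Lgals3 (chr14:47367751-47386160), which encodes galectin-3, was found in 50.9% and 49.2%, and Fcgr4 (ENSMUSG00000059089, chr1:171018920-171029761) in 58 of 116 Sham cells and 45.1% of TBI cells. Klra2 (chr6:131219223-131247362), a receptor of the Ly49 family, was found in 39.7% and 35.0%. Thinned to 1000 UMIs, which left out 3 Sham and 6 TBI cells, Cx3cr1 was found in 59.3% and 41.2%, Ccr2 in 45.1% and 44.7% and Fcgr4 in 15.9% and 12.0%. In endothelial-marker cells, whose medians were 1926 and 2108 UMIs, Ccr2 was detected in 1.80% and 1.90% before thinning and in 0.429% and 0.649% after it.

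Most of the selected cells carried both chemokine receptors, which are genes of the rule, and a minority carried all 3 genes of the name. Ccr2 and Cx3cr1 were both detected in 78 of 116 Sham cells (67.2%) and in 192 of 297 TBI cells (64.6%). Ccr2, Cx3cr1 and Fcgr4 were all detected in 40 Sham cells (34.5%) and 87 TBI cells (29.3%). Cells with Ccr2 but not Cx3cr1 were few, 3 in Sham and 32 in TBI, whereas 29 and 62 had Cx3cr1 but not Ccr2. Of the border genes, Cbr2, a carbonyl reductase, made up nearly all of the single detections allowed, in 28.4% and 33.3% of the cells, and Cd209f and Cd209g had no UMI.

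The edges of the rule differed in depth. Shallow cells lay at the edge set by the 6 genes. Those with exactly 2 of the 6 genes numbered 19 in Sham and 70 in TBI, with medians of 2221 and 4044 UMIs, and cells just outside, with 1 of the 6, numbered 34 and 84, with medians of 1106 and 1591 UMIs. At the C1q threshold, 1 Sham and 6 TBI cells inside had 5 to 9 C1q UMIs, while 23 and 38 cells outside met every other part with 1 to 4, and these outside cells were deep, with medians of 10670 and 8403 UMIs. At the border threshold, 34 and 104 cells inside had 1 border gene, with medians of 7562 and 7056 UMIs, and 10 and 50 cells outside had 2, with medians of 7230 and 6518 UMIs.

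Among the cells that passed the C1q and lymphocyte parts of the rule, 324 in Sham and 728 in TBI, the selected macrophages made up 35.8% (30.6 to 41.3) in Sham and 40.8% (37.2 to 44.5) in TBI. The difference was 4.99 percentage points (-1.41 to 11.2 by Newcombe's method), an interval that includes 0. Border-marker macrophages, defined as C1q-gated cells with at least 2 border genes and at most 1 of the 6, held 31.8% and 24.7% of the same cells. Cells with both gene groups held 7.72% and 14.0%, and cells with neither held 24.7% and 20.5%. The classes differed in depth, since the median was 1735 and 2370 UMIs in border-marker macrophages and 928 and 1351 UMIs in cells with neither gene group.

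**Figure D1:**
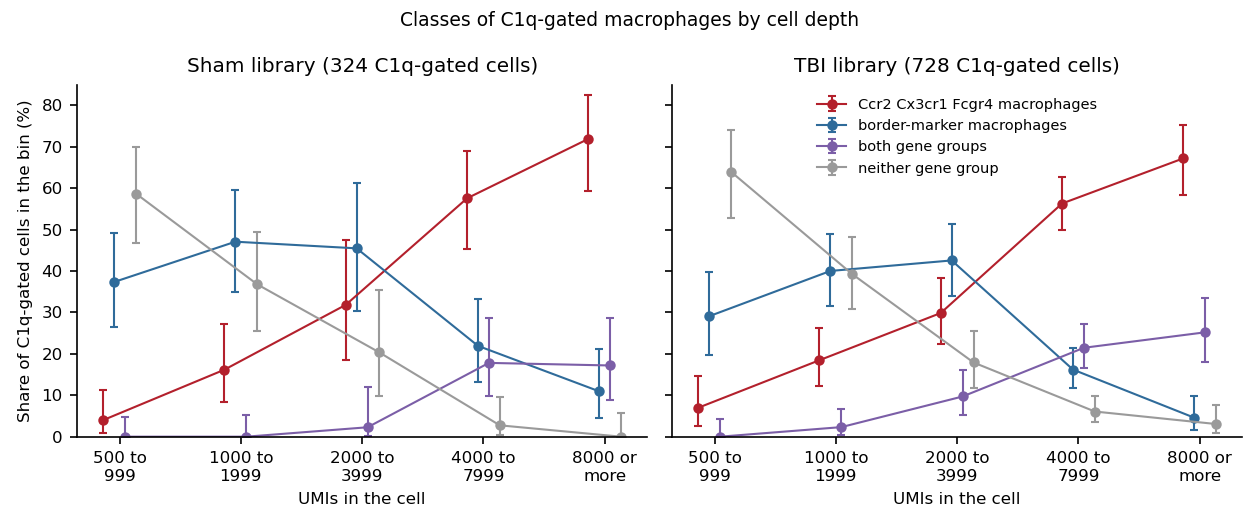
Share of C1q-gated cells in each of 4 classes (vertical axis, percent) by the number of UMIs in the cell (horizontal axis, 5 bins), in the Sham library and the TBI library, with 95% exact binomial intervals. The Ccr2 Cx3cr1 Fcgr4 macrophages went from 4.00% and 6.98% of the shallowest cells to 71.9% and 67.2% of the deepest.

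The plot of classes by depth shows how far the assignment followed the number of UMIs. Below 1000 UMIs the selected macrophages were 4.00% of C1q-gated cells in Sham (0.833 to 11.2) and 6.98% in TBI (2.60 to 14.6). From 4000 UMIs to below 8000 they were 57.5% (45.4 to 69.0) and 56.3% (49.8 to 62.6), and from 8000 upwards 71.9% (59.2 to 82.4) and 67.2% (58.4 to 75.1). Within each of the 5 bins the intervals of the 2 libraries overlapped. With every cell thinned to 1000 UMIs before the rule was applied, the difference between TBI and Sham turned to -3.27 points (-10.1 to 3.23). Among cells of at least 2000 UMIs it was -4.21 points (-12.5 to 4.25).

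As a share of all filtered cells the class stood at 5.68% (4.71 to 6.77) in Sham and 7.87% (7.03 to 8.78) in TBI, a difference of 2.19 points (0.832 to 3.48). After thinning to 1000 UMIs the difference was 0.913 points (-0.432 to 2.16), whereas among cells of at least 2000 UMIs it was 3.04 points (1.03 to 4.94). From 4000 UMIs to below 8000 the share was 10.7% (7.85 to 14.2) in Sham and 17.6% (15.0 to 20.5) in TBI. In the other depth bins the intervals of the libraries overlapped. Among immune cells, taken as the class itself and cells with Ptprc, which encodes CD45, the share was 10.9% and 19.8%, a difference of 8.87 points (6.08 to 11.6). More of these macrophages and fewer of the other cells captured cannot be told apart in such a share.

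To describe what else the cells expressed, their summed UMIs were compared with those of border-marker macrophages within each library. Genes entered with at least 100 UMIs in the pair of sums in each library, without the genes of the rule, which left 1514. A gene was called apart when its CPM differed by at least 2-fold in the same direction in both libraries, and fold changes are log2 ratios with 0.5 UMIs added to each sum. By this measure 61 genes were higher (4.03%) and 61 lower (4.03%), and the median log2 ratio over all 1514 was -0.08 in Sham and -0.07 in TBI. All tested MHC class II genes and 7 of 13 S100 and cytoskeletal genes were higher, all tested border macrophage genes and 5 of 7 scavenger and efferocytosis genes were lower, and the chemokines were split. The classes were defined on the same cells, so these differences are a description and carry no test.

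**Figure D2:**
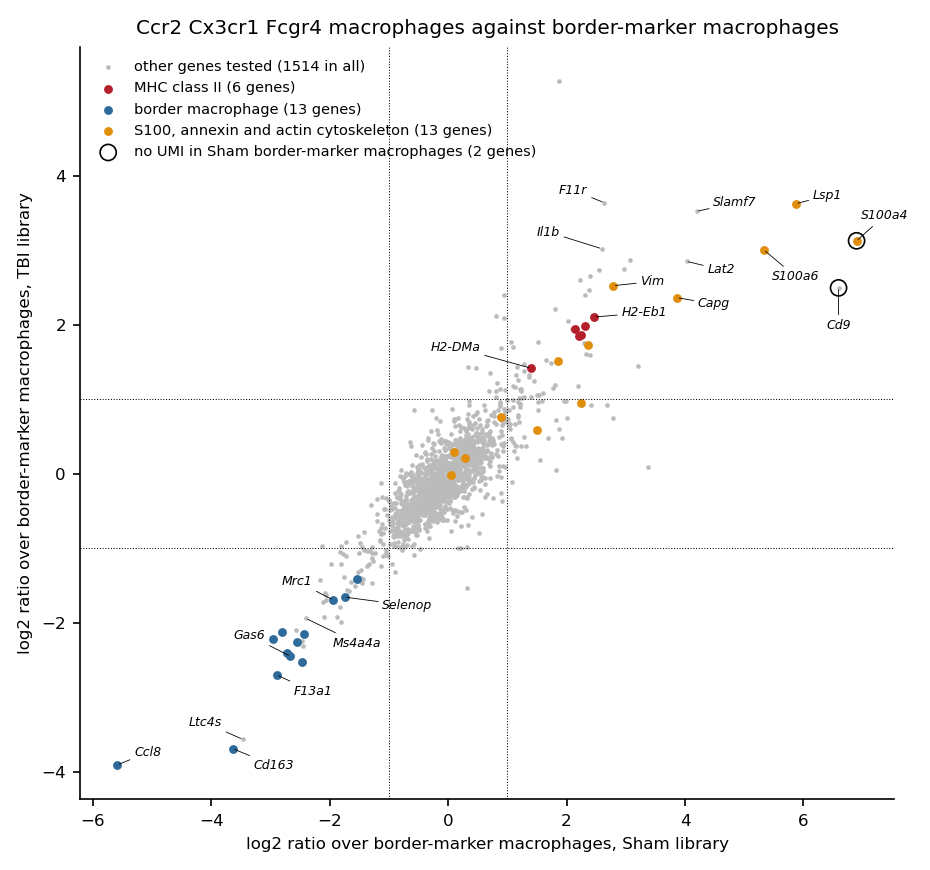
Log2 ratio of CPM, Ccr2 Cx3cr1 Fcgr4 macrophages over border-marker macrophages, in the Sham library (horizontal axis) and the TBI library (vertical axis), for 1514 genes, with gene lists in colour and dotted lines at 2-fold. All 6 tested MHC class II genes lie at the upper right and all 13 tested border macrophage genes at the lower left, and circles mark S100a4 and Cd9, which had no UMI in the Sham border-marker class.

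The plot of log2 ratios in the 2 libraries shows the MHC class II genes together at the upper right. Of the 10 listed genes 6 had enough UMIs, and all 6 were at least 2-fold higher in both libraries, with median log2 ratios of 2.22 in Sham and 1.90 in TBI against -0.08 and -0.07 over all genes. H2-Aa (ENSMUSG00000036594, chr17:34282744-34287823), the alpha chain of I-A, stood at 16169 CPM in Sham and 15753 CPM in TBI, against 3422 and 4343 CPM in border-marker macrophages. Its log2 ratios were 2.24 (2.15 to 2.33) and 1.86 (1.80 to 1.92). H2-Eb1, the beta chain of I-E, stood at 15246 and 14588 CPM against 2755 and 3394 CPM, and H2-Ab1, the beta chain of I-A, at 11007 and 9180 CPM against 2221 and 2324 CPM. The 3 chain genes differed from the border-marker class by similar factors.

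The genes that load the peptides were higher as well. Cd74, the invariant chain, stood at 51891 and 54531 CPM against 11225 and 15197 CPM. H2-DMb1, a chain of the peptide exchanger, stood at 1153 and 1128 CPM against 259 and 291 CPM (log2 2.15 and 1.95), and its partner H2-DMa at 844 and 850 CPM against 320 and 317 CPM (log2 1.39 and 1.42). Ciita, the master activator of MHC class II transcription, had too few UMIs for the comparison, with 112 and 130 CPM against 2 UMIs in the Sham and 17 UMIs in the TBI border-marker class. H2-Oa had no UMI in either border-marker class and 15.2 and 9.85 CPM here.

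Promoters are shown for H2-Aa, H2-Eb1 and H2-DMb1, the tested genes, among those searched, with the Y box letters near the start. RefSeq promoter sequence of GRCm38.p6, 250 bases before to 50 after a gene's start, was at hand for 7 of the 10 genes, and TGATTGG, a form of the Y box read on both strands, occurred in 6 of the 7. The other hits were H2-DMb2, H2-Oa and H2-Ob, which had too few UMIs to be compared. Of all 32851 promoters of that length 2568 (7.82%) held it. The sequences run 5′ to 3′ on the gene's own strand, with the motif in capitals, and the motif began 50 bases before the start in H2-Aa, 61 in H2-Eb1 and 63 in H2-DMb1. Both promoters of H2-DMa lacked these letters in the window. A match is a description of letters and no binding was measured.
H2-Aa, chr17:34287774-34288073, minus strand: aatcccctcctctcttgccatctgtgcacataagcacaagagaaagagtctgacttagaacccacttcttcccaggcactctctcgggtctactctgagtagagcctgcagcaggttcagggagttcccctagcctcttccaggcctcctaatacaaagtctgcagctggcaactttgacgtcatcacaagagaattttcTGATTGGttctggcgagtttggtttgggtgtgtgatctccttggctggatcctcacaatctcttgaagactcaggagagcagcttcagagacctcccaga
H2-Eb1, chr17:34305617-34305916, plus strand: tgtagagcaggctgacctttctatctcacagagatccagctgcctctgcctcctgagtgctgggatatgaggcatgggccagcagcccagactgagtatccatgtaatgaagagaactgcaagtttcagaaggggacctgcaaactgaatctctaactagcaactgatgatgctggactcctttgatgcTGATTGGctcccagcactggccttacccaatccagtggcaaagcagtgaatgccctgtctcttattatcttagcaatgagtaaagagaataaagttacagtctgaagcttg
H2-DMb1, chr17:34152941-34153240, plus strand: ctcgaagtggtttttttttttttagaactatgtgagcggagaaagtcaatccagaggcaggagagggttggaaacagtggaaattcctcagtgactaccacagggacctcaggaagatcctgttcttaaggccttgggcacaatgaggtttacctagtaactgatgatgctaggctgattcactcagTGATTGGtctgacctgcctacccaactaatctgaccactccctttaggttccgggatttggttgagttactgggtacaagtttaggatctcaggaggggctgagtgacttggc

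Cell by cell, the 10 MHC class II genes made up a median of 10.2% of a cell's UMIs in Sham (quartiles 7.51% and 12.4%) and 10.3% in TBI (7.42% and 12.7%). The lowest cell had 0% in Sham and 0.0415% in TBI and the highest 24.4% and 26.9%. In border-marker macrophages the medians were 0.402% and 0.720%, and in cells with both gene groups 3.68% and 4.77%. Cd209a dendritic cells, which carried Cd209a with Flt3, Clec10a, Zbtb46 or Dpp4 and did not pass the C1q gate, had 9.35% and 9.32%, and Treml4 monocytes 0.0902% and 0.0820%. Among cells of at least 2000 UMIs the medians were 10.2% and 10.5% against 0.420% and 1.09% in border-marker macrophages.

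**Figure D3:**
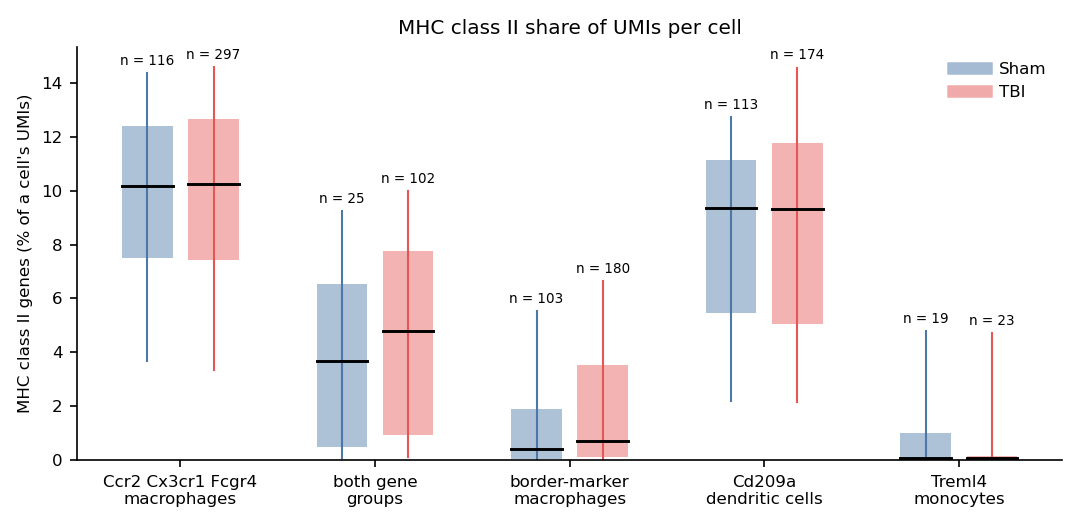
Share of a cell's UMIs in the 10 MHC class II genes (vertical axis, percent) by cell class and library, with the median as a bar, quartiles as a box and the 10th to 90th percentile as a line. The Ccr2 Cx3cr1 Fcgr4 macrophages, with medians of 10.2% and 10.3%, lie beside the Cd209a dendritic cells and far above the border-marker macrophages.

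The plot of MHC class II per cell shows the spread within each class, and the middle quartiles of the selected macrophages and of the border-marker macrophages did not overlap in either library. MHC class I genes differed much less. Of 11 tested class I genes only Tap1, a peptide transporter, was at least 2-fold higher in both libraries, and their median log2 ratios were 0.35 and 0.28.

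Among the S100, annexin and actin cytoskeleton genes 7 of 13 tested were at least 2-fold higher in both libraries and 0 lower, with median log2 ratios of 2.25 and 1.52. S100a4, a calcium-binding protein of motile cells, stood at 202 and 145 CPM, against no UMI in the Sham border-marker class, which makes it at least 19.8-fold higher, and 15.8 CPM in TBI (log2 3.13, 2.26 to 4.35). S100a6 stood at 479 and 429 CPM against 3 UMIs in Sham (log2 5.33, 4.00 to 7.84) and 52.6 CPM in TBI. Lsp1, an actin-binding protein of leukocytes, stood at 499 and 400 CPM against 2 UMIs in Sham (log2 5.88, 4.34 to 9.25) and 31.6 CPM in TBI (log2 3.62). Vim, the intermediate filament vimentin, stood at 693 and 721 CPM against 98.6 and 125 CPM, and the actin-capping protein Capg at 173 and 185 CPM against 3 UMIs in Sham and 35.1 CPM in TBI (log2 3.87, 2.51 to 6.38, and 2.36).

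These genes are also strong in dendritic cells, where S100a4 stood at 1067 and 898 CPM, S100a6 at 2450 and 2194 CPM, Lsp1 at 2190 and 2109 CPM and Vim at 2505 and 2112 CPM. The dendritic list as a whole summed to 208 and 186 CPM in the selected macrophages against 558 and 570 CPM in border-marker macrophages, where its most abundant gene, Clec10a, is itself a macrophage gene. Without Clec10a the other 7 genes summed to 117 and 72.1 CPM here against 64.6 and 63.1 CPM, which is higher in Sham and by little in TBI. The part of dendritic cells in the result was not tested.

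Signalling and surface genes higher in both libraries included Slamf7, an adhesion receptor of the SLAM family, at 156 and 131 CPM against 2 UMIs in Sham (log2 4.20, 2.63 to 7.58) and 10.5 CPM in TBI (log2 3.52). Lat2, an adaptor of immune receptors, stood at 138 and 145 CPM against 2 UMIs in Sham (log2 4.03, 2.46 to 7.40) and 19.3 CPM in TBI (log2 2.85). Cd72, an inhibitory lectin best known from B cells, stood at 241 and 358 CPM against 44.2 and 56.1 CPM, and was found in 65.5% and 65.3% of the cells. The tetraspanin Cd9 stood at 164 and 173 CPM against no UMI in Sham, at least 16.0-fold higher, and 29.8 CPM in TBI. F11r, the junctional adhesion molecule A, differed by log2 2.64 and 3.64, Plbd1, a phospholipase-like protein, by 2.97 and 2.74, and the cytochrome Cyp4f18 by 2.55 and 2.73. Slamf7, Plbd1, Cd9 and Lat2 were higher still in Cd209a dendritic cells, at 322 and 379, 965 and 996, 223 and 258, and 151 and 157 CPM. Cd72, F11r and Cyp4f18 were lower there than here, at 71.6 and 96.5, 57.0 and 58.0, and 25.2 and 39.9 CPM. The part of dendritic cells in these genes was not tested either. In the list of inhibitory receptors, which does not hold Cd72, 0 of 11 tested genes were apart by the 2-fold rule, and their medians were 0.10 and 0.24.

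Cytokine and chemokine genes split. Il1b, the inflammatory cytokine interleukin 1 beta, stood at 112 and 163 CPM against 17.0 and 19.3 CPM (log2 2.59 and 3.02), in 25.9% and 23.2% of the cells. Ccl5, a chemokine for T cells, stood at 129 and 159 CPM against 13.6 and 21.0 CPM. Cxcl10, an interferon-induced chemokine, stood at 203 and 247 CPM against 37.4 and 43.9 CPM, but only 9 Sham and 17 TBI cells held any, and Cxcl9 was likewise found in 8 and 19 cells. Cxcl16 stood at 449 and 482 CPM against 190.5 and 223 CPM, and the lower pair were Ccl8 and Pf4. Of the 9 chemokines tested 4 were higher and 2 lower.

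All 13 tested genes of the 16 in the border macrophage list were at least 2-fold lower in both libraries, with median log2 ratios of -2.66 and -2.26. None of the 13 was among the 5 border genes of the rule, but the comparison class was chosen on those 5. Ccl8, a monocyte-attracting chemokine, stood at 60.8 and 78.8 CPM against 2946 and 1186 CPM (log2 -5.59 and -3.91), and Cd163, the receptor for hemoglobin bound to haptoglobin, at 36.3 and 27.0 CPM against 456 and 351 CPM (log2 -3.63 and -3.69). F13a1, clotting factor XIII A, stood at 248 and 271 CPM against 1844 and 1761 CPM, Pf4, platelet factor 4, at 714 and 869 CPM against 4215 and 4157 CPM, and Gas6, the ligand of Axl and Mertk, at 146 and 184 CPM against 929 and 1003 CPM. Mrc1, the mannose receptor, was lower but present, at 565 and 656 CPM against 2174 and 2121 CPM.

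Further genes among the lowest were Ltc4s, the leukotriene C4 synthase (log2 -3.47 and -3.56), the lectins Clec4n (-2.47 and -2.53) and Clec10a (-2.43 and -2.15), and Igf1, the insulin-like growth factor (-2.96 and -2.22). Stab1, the scavenger receptor stabilin 1, differed by -2.80 and -2.12, Ninj1, which ruptures the membrane of dying cells, by -2.72 and -2.41, and Igfbp4 by -2.47 and -2.24. The protease inhibitor Serpinb6a, the endocytic scaffold Itsn1 and the membrane protein Ms4a4a were lower by log2 -2.44 and -2.31, -2.57 and -2.10, and -2.40 and -1.94. Of 7 tested scavenger and efferocytosis genes 5 were lower, whereas Axl, a receptor for Gas6, was higher at 300 CPM in both libraries against 116 and 119 CPM.

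In the iron handling list 3 of 8 tested genes were lower, with medians of -0.81 and -0.71. They were the biliverdin reductase Blvrb (log2 -2.07 and -1.69), the ferritin receptor of autophagy Ncoa4 (-1.87 and -1.92) and Hpgds (-1.78 and -1.08), which makes a prostaglandin and does not itself handle iron. Slc40a1, the iron exporter ferroportin, fell short of the minimum in Sham and stood at 4.68 and 15.0 CPM against 320 and 188 CPM. In the lysosome list 2 of 17 were higher, the protease Ctss (log2 1.17 and 1.26) and the saposin precursor Psap (1.28 and 1.37), and 1 was lower, the protease Ctsl (-1.46 and -1.40). Of 6 Fc receptor genes besides Fcgr4 the neonatal receptor Fcgrt (-1.57 and -1.50) and Fcrls (-2.11 and -1.72) were lower and 0 were higher. In the complement list 2 of 6 tested genes were lower and 0 higher, 3 lay above 0 in both libraries, and the medians were -0.15 and -0.25. Cfp, the complement factor properdin, was lower at 178 and 250.5 CPM against 626 and 582 CPM (log2 -1.82 and -1.22).

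Of 20 tested interferon-induced genes 1 was higher and 1 lower, but 13 lay above 0 in both libraries and 3 below, beside 507 and 708 of all 1514 genes, and their medians were 0.57 and 0.16. After thinning to 1000 UMIs these medians turned to -0.69 and -0.23. The summed list was lower here, at 7547 and 7747 CPM against 8507 and 9311 CPM, and so was its median share per cell, at 0.520% and 0.521% of UMIs against 0.797% and 0.757%. Its most abundant gene, Ly6e, stood at 1853 and 1619 CPM against 3966 and 3482 CPM. Of 10 tested transcription factors 1 was lower, the macrophage factor Maf at 375 and 358 CPM against 1085 and 954 CPM. Of 11 tested genes induced by tissue dissociation 1 was higher, but 10 lay above 0 in both libraries and 0 below, and their medians were 0.95 and 0.67. The median share of this list per cell was 0.365% and 0.398% against 0.228% and 0.275%. Its part in the result was not tested. Of 9 macrophage markers and 4 TGF-beta genes 0 were apart. Of 8 tested lipid handling genes Cd9 and the lipase Lpl were higher and the cholesterol exporter Abca1 was lower, and of 3 tested cytokine and NF-kB genes Il1b was higher. Ms4a4c, the 1 classical monocyte gene tested, was higher by log2 2.30 and 2.40.

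The selected macrophages also varied among themselves. After the values were seen, they were split by whether at least 2 of the 6 microglial genes P2ry12, Tmem119, Sall1, Siglech, Gpr34 and Olfml3 were detected, which held for 57 of 116 Sham cells (49.1%) and 145 of 297 TBI cells (48.8%). Median depth was 7497 against 6236 UMIs in Sham and 6297 against 6080 UMIs in TBI. After thinning to 1000 UMIs the criterion was met by 12 of 113 cells (10.6%) and 19 of 291 cells (6.53%). Cells that met it had more of the lipid carrier Apoe, at 19730 against 9993 CPM in Sham and 20906 against 9764 CPM in TBI. Trem2, a lipid receptor, was higher by log2 1.49 and 0.74 and Ms4a7 by 1.14 and 0.89.

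The same cells had less S100a6, at 207 against 802 CPM in Sham and 182 against 700.4 CPM in TBI, and less S100a4 (log2 -1.70 and -1.77), Vim (-0.93 and -1.19) and Lgals3 (-0.89 and -0.74). MHC class II was alike, with log2 ratios for H2-Aa of -0.03 (-0.07 to 0.02) and 0.12 (0.09 to 0.15). Ccr2 was detected in 68.4% of the cells with and 71.2% of those without in Sham, and in 73.1% and 77.6% in TBI.

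**Figure D4:**
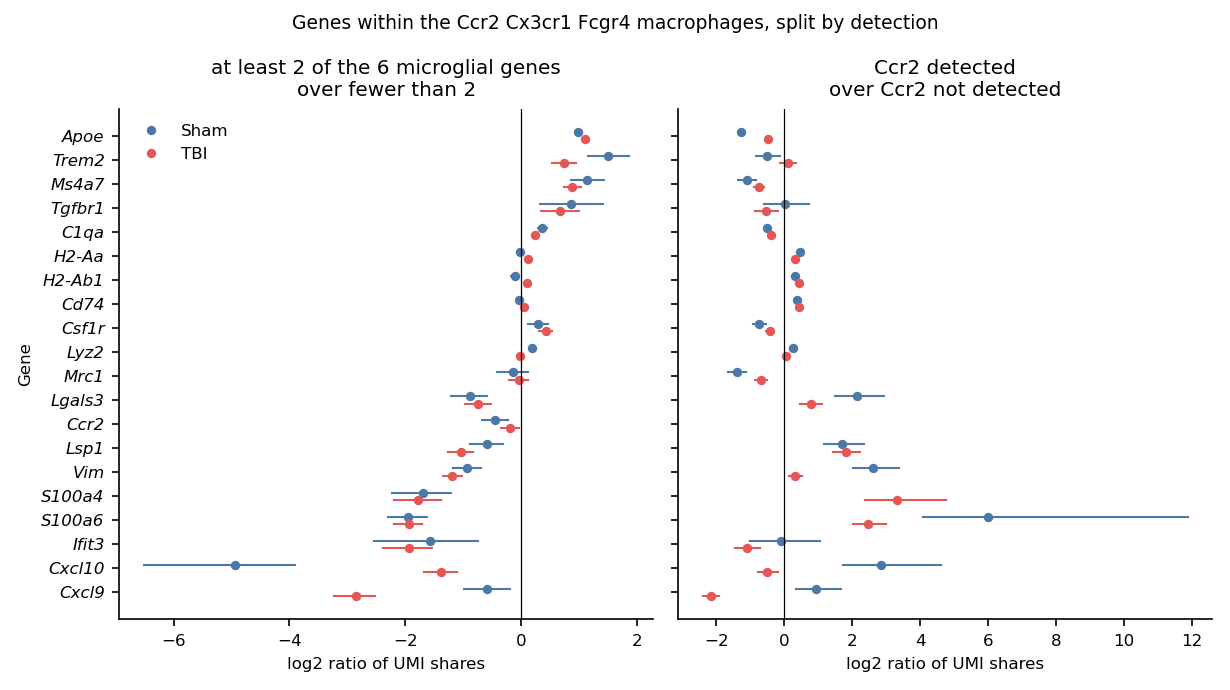
Log2 ratios of CPM within the Ccr2 Cx3cr1 Fcgr4 macrophages (horizontal axis) for selected genes (vertical axis), in cells with against without at least 2 of 6 microglial genes (left) and with against without Ccr2 (right), in Sham and TBI, with 95% counting intervals. Genes with 0 UMIs on one side are omitted, and S100a6 lies below 0 in the first comparison and above 0 in the second in both libraries.

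The plot of ratios within the class also shows the split by Ccr2, which was detected in 81 Sham and 224 TBI cells. Cells with Ccr2 were deeper, with medians of 8133 against 4049 UMIs in Sham and 6453 against 5125 UMIs in TBI, and the part of depth in the result was not tested. S100a4 stood at 249 CPM in Sham cells with Ccr2 and had no UMI in those without, and at 181 against 16.7 CPM in TBI. S100a6 differed by log2 5.99 (4.09 to 11.9) and 2.47 (2.02 to 2.99), Lsp1 by 1.71 and 1.81 and Lgals3 by 2.15 and 0.78. Pf4 was lower in cells with Ccr2, at 470 against 1765 CPM and 672 against 1578 CPM, as were Ms4a7 (log2 -1.10 and -0.73) and P2ry12 (-2.06 and -0.82). H2-Aa was somewhat higher, by log2 0.46 (0.39 to 0.53) and 0.34 (0.29 to 0.38). Cd209a, the dendritic cell lectin, stood at 105 CPM against no UMI in Sham and 44.4 against 7.17 CPM in TBI, and its part in the result was not tested.

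Cells with 1 border gene, 34 in Sham and 104 in TBI, had more of other border macrophage genes than cells with 0. Pf4 stood at 1482 against 338 CPM in Sham and 1635 against 360 CPM in TBI, F13a1 at 501 against 124 CPM and 581 against 64.7 CPM, and Mrc1 at 867 against 417 CPM and 977 against 442 CPM. Cd163 differed by log2 4.05 (2.56 to 6.61) and 2.61 (1.64 to 3.82). Itgax, which encodes CD11c, was lower by log2 -2.37 (-4.46 to -1.07) and -3.93 (-6.45 to -2.55), and H2-Aa by -0.37 and -0.38. In these genes the cells with a single border gene lay between the other selected macrophages and the border-marker macrophages.

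Between the libraries the selected macrophages differed little. Of 3468 genes whose 2 sums together reached 100 UMIs, 17 (0.49%) were at least 2-fold higher in TBI and 11 (0.317%) at least 2-fold lower, and 3234 (93.3%) lay within 0.5 on the log2 scale. The median log2 ratio was -0.00. In 18 of the 28 genes apart 1 cell held over 20% of the UMIs, and 4 were hemoglobin genes. The 4 hemoglobin genes summed to 1986 CPM in Sham and 130 CPM in TBI, beside 2068 and 342 CPM in endothelial-marker cells. Without the highest cell of each gene 11 genes were higher and 11 lower. Predicted doublets made up 1.72% of the Sham and 7.74% of the TBI macrophages, and without them 6 genes were higher and 12 lower. After thinning to 1000 UMIs 3 were higher and 3 lower.

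**Figure D5:**
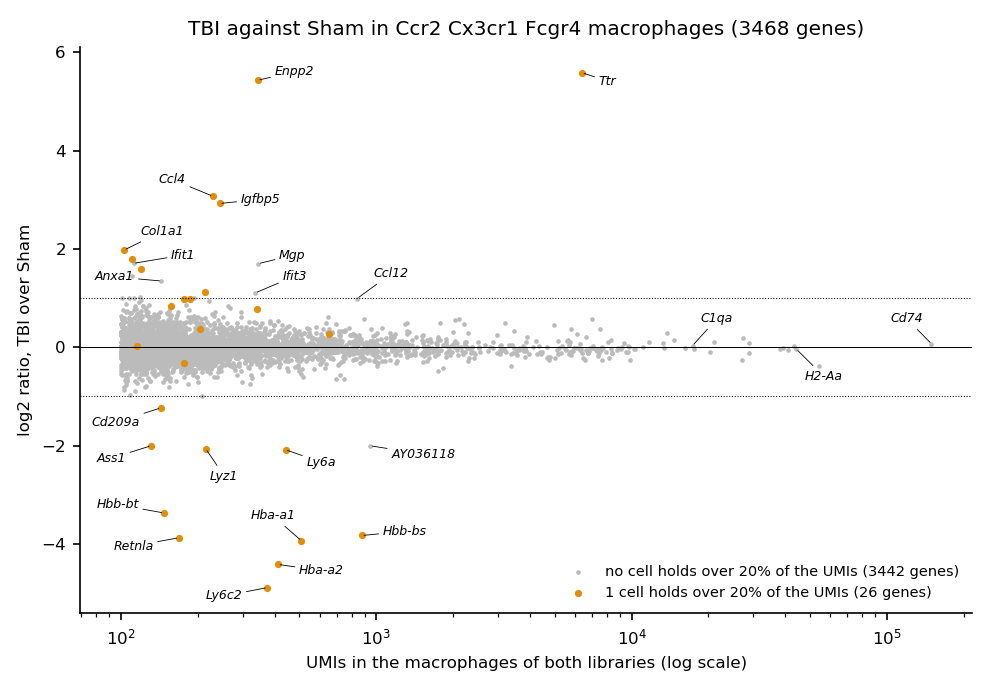
Log2 ratio of CPM, TBI over Sham, in the Ccr2 Cx3cr1 Fcgr4 macrophages (vertical axis) against the UMIs of the gene in both libraries together (horizontal axis, log scale), for 3468 genes. Most genes lie near 0, and Ttr and Ly6c2, at the extremes, have most of their UMIs in 1 TBI cell and 2 Sham cells.

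The plot of TBI over Sham shows how few genes stood apart. Ttr, a choroid plexus gene, had 58 UMIs in Sham and 6340 in TBI, of which 6178 were in 1 cell, and 339 of the 341 Enpp2 UMIs were likewise in 1 TBI cell. Ly6c2 had 348 UMIs in Sham and 26 in TBI, and 2 Sham cells held 181 and 152 of them. Ccl4, a chemokine of activated myeloid cells, had 11 UMIs in 3 Sham cells and 218 in 27 TBI cells, with 92 in 1 cell.

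Genes higher in TBI without such a cell included Ifit1 and Ifit3, both induced by type I interferon. Ifit1 had 13 UMIs in 10 Sham cells and 99 in 33 TBI cells (log2 1.71, 0.92 to 2.72), and Ifit3 had 57 in 16 and 279 in 58 (log2 1.11, 0.70 to 1.56). The share of cells with Ifit1 was 8.62% and 11.1% and with Ifit3 13.8% and 19.5%. Without predicted doublets the log2 ratios were 1.17 for Ifit1 and 0.70 for Ifit3, the latter no longer 2-fold. Ifit3 was also higher in border-marker macrophages, by log2 3.11 (2.12 to 4.55). The interferon list as a whole had a median of 0.14 over 37 tested genes, 24 of them above 0, beside -0.00 and 1730 of 3468 over all genes, and without predicted doublets its median was -0.036.

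Mgp, matrix Gla protein of fibroblasts and vessels, had 41 UMIs in Sham and 304 in TBI (log2 1.70, and 0.92 without predicted doublets), but also had 35 and 294 UMIs in border-marker macrophages and stood at 1602 and 2935 CPM in endothelial-marker cells. The 4 fibroblast genes, at 33.9 and 120 CPM here, summed to 71.4 and 384 CPM in border-marker macrophages, and their part in the result was not tested. Acp5, a phosphatase of osteoclasts and macrophages, differed by log2 1.45 (0.70 to 2.38), Anxa1, an anti-inflammatory annexin, by 1.35 (0.70 to 2.12), and the lysosomal protease Ctsf by 1.02 (0.36 to 1.80). Hebp1, a heme-binding protein, Gch1, which makes tetrahydrobiopterin, and the hexokinase Hk2 differed by 1.01, 1.00 and 1.00. The last 6 of these genes had at most 21 UMIs each in Sham.

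Of the chemokines, Ccl2, the ligand of Ccr2, had 35 UMIs in 17 Sham cells and 159 in 40 TBI cells (log2 0.99, 0.48 to 1.58), at 14.7% and 13.5% of the cells. Ccl12, its close relative, had 153 UMIs in 27 cells and 688 in 70 cells (log2 0.99, 0.74 to 1.26), at 23.3% and 23.6%. The share of cells with either gene was thus about equal and the sums differed through the cells that held them, with 168 of the TBI Ccl12 UMIs in 1 cell. All 12 chemokines with enough UMIs lay above 0, with a median of 0.32. Of the 5 without enough UMIs, Cxcl13 went the other way, from 79 UMIs in Sham to 3 in TBI. Ccl24 was slightly lower as well, at 12.9 CPM in Sham and 11.4 CPM in TBI.

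Among genes lower in TBI in which no cell held over 20% of the UMIs, only AY036118 reached 2-fold. It stood at 710 and 177 CPM (log2 -2.00, -2.20 to -1.81), with 311 of its 607 Sham UMIs in 2 cells. H2-Q7, an MHC class I gene with close copies in the genome, had 97 UMIs in Sham and 110 in TBI (log2 -0.99, -1.40 to -0.58), and its reads may be shared with its copies. Relb, a subunit of NF-kB, differed by -0.78 (-1.31 to -0.24), Baz1a, a chromatin remodeller, by -0.89, Smc6, a genome maintenance protein, by -0.80, and Asb2, a ubiquitin ligase subunit, by -0.81. Cdv3, March2, Ear2 and Ncln differed by -0.96, -0.87, -0.80 and -0.76.

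MHC class II had a median of -0.03 between the libraries over 7 tested genes, with H2-Aa at -0.04, Cd74 at 0.07 and H2-Ab1 lowest at -0.26 (-0.30 to -0.23). The genes of the rule lay at -0.15 for Ccr2 (-0.28 to -0.02), -0.43 for Cx3cr1 (-0.57 to -0.29), -0.28 for Lgals3 (-0.46 to -0.09), -0.11 for Klra2 (-0.50 to 0.31) and -0.01 for Fcgr4 (-0.32 to 0.33), whereas Slamf9 lay at 0.27 (0.09 to 0.46). The border macrophage list had a median of 0.28 over 12 tested genes, 10 of them above 0, and -0.025 among cells with 0 border genes. S100, annexin and actin genes had a median of -0.09 and lysosome genes one of 0.08. Of 5 tested growth factor genes 0 were 2-fold apart and 4 lay above 0, with a median of 0.22. Over all genes 1730 of 3468 lay above 0.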

How the data were processed

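Dorsal meninges of 5 pooled mice per group were run on 10x 3' v2 chemistry. The authors aligned the reads and deposited UMI counts per gene and cell as filtered matrices, not normalized. The submitters' processing notes name Cell Ranger 2.1.1, Seurat 3.9.9, DESeq2 1.30.0 and mm10, and the matrix headers carry software version 3.1.0, so the version used for these counts is not certain. Count tables of this kind were read with Python 3.11.15, scanpy 1.11.5 and scipy 1.17.1.

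Barcodes with under 150 or over 5000 genes were dropped, as were those in which mitochondrial transcripts exceeded 20% or hemoglobin transcripts 5% of the total. Library totals were 9527334 and 15011079 UMIs. UMIs were summed per class and library, 0.5 was added, and log2 ratios of CPM were given with exact binomial counting intervals. With 1 library per group no test was run. Doublets were kept, and scores from simulated doublets marked 2 Sham and 23 TBI macrophages of the class, whose removal was an alternative. Thinning drew 1000 UMIs per cell. The scripts were tested on simulated data.

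The macrophages and the 38 gene lists were chosen with earlier results of these data known. Named genes were those of the rule and the lists, the 15 highest and 15 lowest against border-marker macrophages by the smaller of the 2 libraries' ratios, and the 10 largest each way between TBI and Sham in which no cell held over 20% of the UMIs. Ribosomal protein, mitochondrial, hemoglobin and immunoglobulin genes were counted but not named by this rule. Genes dominated by single cells, and the split by microglial genes, were named after their values were seen. Alternatives covered scaling, the UMI minimum, the added count, depth, the thresholds of the rule and doublets. Lists with under 2 genes tested against border-marker macrophages are given here by their sums: the 5 non-classical monocyte genes summed to 49.1 and 46.2 CPM, the 7 chemokine receptors to 270.1 and 231 CPM, the 14 growth factors to 346 and 433 CPM, the 9 proliferation genes to 601 and 489 CPM, the 2 pineal genes to 0 and 2.59 CPM and the 2 Schwann cell genes to 2.34 and 1.04 CPM. Between TBI and Sham the median log2 ratio was -2.57 over 2 tested classical monocyte genes, -0.37 over 2 chemokine receptors, -0.05 over 2 proliferation genes and 5.51 over 2 choroid plexus genes. Results for some genes are not reported here.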

Additional observations from a re-analysis of the deposited data

Results flagged for a closer look

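The iron handling list had medians of opposite sign in the 2 macrophage classes, although 0 of its 9 tested genes reached 2-fold between the libraries in the Ccr2 Cx3cr1 Fcgr4 macrophages. The median log2 ratio, TBI over Sham, was 0.17 over these 9 genes and -0.28 over 10 tested genes in border-marker macrophages. Blvra went against it, at -0.08 and 0.17. The difference was not tested, since each class had 1 library per group, and in the thinned cells the first value was -0.064.

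Outside the quality limits 6 barcodes met the rule, 3 in Sham and 3 in TBI, and entered no comparison. Of these 5 were over the hemoglobin limit and 1 was over the mitochondrial limit.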

How the results depend on the processing

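No paired analysis was possible because each group was 1 library, and the groups share only replicate number 1. For the same reason no replicate could be left out. The difference in the share of C1q-gated cells, 4.99 points, turned to -3.27 (-10.1 to 3.23) with cells thinned to 1000 UMIs. It turned to -4.21 (-12.5 to 4.25) in cells of at least 2000 UMIs. The share of filtered cells differed by 8.87 points among immune cells only. The 61 genes higher than in border-marker macrophages became 93 by the mean over cells, 453 without a minimum and 13 after thinning, and the 61 lower became 889 and 16 under the last 2. Between TBI and Sham the 17 higher genes became 33 by the mean over cells, 1717 without a minimum, 3 after thinning and 6 without predicted doublets, and the 11 lower became 1371 without a minimum and 3 after thinning. Thinning also leaves fewer genes above the minimum.

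Among medians of gene lists 472 of the alternative values stayed near the first, 80 moved and 16 changed sign. Against border-marker macrophages, in Sham and TBI, the complement list turned to 0.19 and 0.083 by the mean over cells and to 0.23 and 0.33 without a minimum, and the interferon list to -0.69 and -0.23 after thinning. The lysosome list in TBI turned to 0.00783 by the mean over cells and 0.11 after thinning, the interferon list in TBI to -0.077 without doublets, and the inhibitory receptors in Sham to -0.022 with 5 UMIs added. Between TBI and Sham the iron list turned to -0.064 after thinning, the border macrophage list to -0.025 with 0 border genes and the interferon list to -0.036 without doublets. Of the named genes only Cdv3 changed sign, to 0.35 after thinning. The causes were not tested.

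Alternatives chosen after seeing the data were 5. With border-marker macrophages of any number of the 6 genes, 40 genes were higher and the chemokine list turned to -0.16 and -0.47. In cells of at least 2000 UMIs the transcription factor list in Sham turned to -0.060. Without each gene's highest cell 11 genes were higher in TBI, of which 8 were among the first 17, and without hemoglobin genes 7 were lower. Keeping barcodes over the hemoglobin limit gave a difference in share of 2.47 points. Depth limits the ratios of genes with 3 UMIs or fewer in a class, whose counting intervals are wide.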

Other observations

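Cells that carried both gene groups, at least 2 border genes and at least 2 of the 6, numbered 25 in Sham and 102 in TBI, with medians of 7598 and 6756 UMIs. Their levels lay between those of the other classes for several genes. Pf4 stood at 2690 and 3180 CPM, against 714 and 869 CPM in the Ccr2 Cx3cr1 Fcgr4 macrophages and 4215 and 4157 CPM in border-marker macrophages, and the 10 MHC class II genes summed to 45733 and 48092 CPM against 96480 and 96198 CPM and 20219 and 25902 CPM. Ccr2, part of their definition, stood at 299 and 253 CPM.

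Some genes with too few UMIs for the comparison nevertheless had clear counts on one side. Itgax, which encodes CD11c, stood at 59.6 and 43.1 CPM in the Ccr2 Cx3cr1 Fcgr4 macrophages and had no UMI in border-marker macrophages of either library. Runx3, a transcription factor of lymphocytes and some myeloid cells, stood at 66.7 and 64.3 CPM against 3 and 5 UMIs (log2 2.50, 1.09 to 5.03, and 2.74, 1.61 to 4.52), and Batf3, a dendritic cell factor, at 83.0 and 103 CPM against 30.6 and 28.1 CPM. C4b, a complement component, stood at 8.19 and 14.0 CPM against 119 and 160 CPM, and Ccl24, an eosinophil chemokine, at 12.9 and 11.4 CPM against 262 and 295 CPM. These genes were chosen after their values were seen.

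The 2 Sham cells with most of the Ly6c2 UMIs held 209 and 68 C1q UMIs and 22 and 15 Ccr2 UMIs, and neither was a predicted doublet. Plac8, another classical monocyte gene, had 61 and 21 UMIs in them, of 86 in the selected Sham macrophages. At least 2 of 6 proliferation genes were detected in 4 Sham and 2 TBI cells.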
